A study of Mus musculus with 12 samples.

Results

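The insulin and IGF signaling genes described here were Igf1, its receptor Igf1r, the insulin receptor Insr, the receptor substrates Irs1 and Irs2, and the IGF binding proteins Igfbp2, Igfbp3, Igfbp4, Igfbp5 and Igfbp6. They were found by symbol in the deposited transcript table among the transcripts that match or overlap a known transcript on its strand (class =, c, j or o), and their reads were summed per gene. All 10 genes were found, of 24516 genes in all, through 16 transcripts, each an exact match to a RefSeq transcript. The samples were whole testes of wild-type C57BL/6 male mice with no treatment, 3 mice at each of 4 ages: 3 months (3M), 6 months (6M), 12 months (12M) and 18 months (18M). The mice differed only in age as far as the labels say. No source used here says how they were related, so p-values measure only the spread between these 12 mice.

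IGF1 and IGF2 are secreted growth factors, and insulin is the related hormone of the pancreas. All 3 bind receptor tyrosine kinases, and the activated receptors phosphorylate the IRS proteins, which dock the lipid kinase PI3K and so turn on AKT and mTOR and hold the FOXO factors in the cytoplasm. The IGFBPs bind IGFs outside the cell, where they prolong their life and limit their access to receptors. In the testis, IGF1 is made by Leydig, peritubular and Sertoli cells, and insulin and IGF receptors act in Sertoli cell proliferation and in the steroid production of Leydig cells.

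Each library held between 50924104 and 71803379 estimated reads, with a median of 56236682, and 94.3% to 95.0% of them lay in the transcripts summed here. A gene among the 10 received from 38 reads (the lowest library of Irs1) to 1496 reads (the highest library of Insr). Levels are given as counts scaled to a fixed library total (CPM), which compare 1 gene between libraries, and as FPKM, the authors' value per transcript length, which also compares genes with each other. The tissue label was checked against marker genes. The 5 spermatid markers summed to between 11857 and 18395 CPM and the 7 Sertoli cell markers to between 277 and 355 CPM in every library, whereas 5 epididymis markers summed to at most 0.354 CPM, with Lcn5 and Adam7 at 0. The 7 Leydig cell markers summed to between 852 and 1018 CPM at 3M and between 555 and 761 CPM at 18M, without overlap. Of these 7, 6 had an unadjusted p-value of 0.05 or less in the slope on age, all lower with age, beside 9.60% of all genes. After adjustment, 3 passed, beside 0.414% of all genes. The summed markers of Sertoli, peritubular myoid, endothelial, macrophage, spermatogonia, spermatocyte, spermatid, epididymis, fat and blood cells overlapped between 3M and 18M. Single markers in some of these lists reached the unadjusted threshold. Lower with age were 2 of 5 endothelial markers and 1 of 5 each for macrophages, spermatogonia and fat. Higher were 1 of 5 spermatocyte and 1 of 5 spermatid markers. In these lists, 0 markers passed after adjustment. In whole testis, fewer cells of a type and less RNA per cell cannot be told apart.

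A pair of alternative exons in these genes carries the difference between isoforms, and both are shown because the deposited table splits the reads of Insr and Igf1 between transcripts with and without them. The alternative exon of Insr is exon 11 of 22, has 36 bases and lies at chr8:3181702-3181737 (mm10, minus strand). It is coding and keeps the reading frame. Receptors without it bind IGF2 as well as insulin with high affinity. The alternative exon of Igf1 is exon 4 of 5 in its transcript, has 52 bases and lies at chr10:87915298-87915349 (mm10, plus strand). It is coding and shifts the frame, so that the precursor ends in another E peptide. In the following lines, capitals mark the exon and lower-case letters the 10 bases joined on each side in the spliced transcript, as GENCODE vM21 gives it.
Insr alternative exon: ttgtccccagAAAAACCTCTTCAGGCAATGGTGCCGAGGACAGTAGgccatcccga
Igf1 alternative exon: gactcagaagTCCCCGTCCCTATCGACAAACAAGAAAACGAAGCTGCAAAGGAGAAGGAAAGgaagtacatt

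The 3 genes whose 3M and 18M libraries did not overlap, Irs1, Igf1r and Irs2, are shown with the 250 bases before their RefSeq starts (GRCm38.p6, the assembly of mm10). Capitals mark GGGCGG, the core of a GC box, searched on both strands. The windows are chr1:82291440-82291689 (minus strand) for Irs1, chr7:67952007-67952256 (plus strand) for Igf1r and chr8:11008930-11009179 (minus strand) for Irs2. The windows of Irs1 and Igf1r end at the deposited starts, and that of Irs2 ends 499 bases before it.
Irs1 upstream: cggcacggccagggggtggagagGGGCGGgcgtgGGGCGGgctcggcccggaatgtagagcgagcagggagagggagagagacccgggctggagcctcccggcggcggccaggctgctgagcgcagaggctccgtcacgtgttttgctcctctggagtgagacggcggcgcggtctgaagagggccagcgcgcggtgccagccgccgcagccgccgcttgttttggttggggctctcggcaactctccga
Igf1r upstream: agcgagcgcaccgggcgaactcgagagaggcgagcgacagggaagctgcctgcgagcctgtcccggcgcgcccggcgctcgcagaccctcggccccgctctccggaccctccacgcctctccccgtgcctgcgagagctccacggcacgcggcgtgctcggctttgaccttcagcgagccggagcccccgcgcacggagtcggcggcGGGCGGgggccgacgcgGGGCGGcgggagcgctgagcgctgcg
Irs2 upstream: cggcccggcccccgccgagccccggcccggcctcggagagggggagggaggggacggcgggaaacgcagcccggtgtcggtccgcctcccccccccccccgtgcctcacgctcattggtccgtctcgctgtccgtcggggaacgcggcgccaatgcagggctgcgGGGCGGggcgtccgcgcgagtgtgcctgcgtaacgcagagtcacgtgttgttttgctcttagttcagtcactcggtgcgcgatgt
The windows held 28 CpG dinucleotides in Irs1, 42 in Igf1r and 34 in Irs2, against a median of 6 over 32851 windows of all genes. RefSeq windows were found for 9 of the 10 genes, 10 windows in all. The other 7 windows held from 5 (Igf1) to 32 (Igfbp3) CpG dinucleotides, so that Igfbp3 lay above Irs1. GGGCGG lay in 4 of them (Igf1r, Igfbp2, Irs1 and Irs2) and in 32.7% of all windows. TATAAA, searched on both strands, lay in 2 (Igfbp4 and Igfbp6) and in 12.4% of all windows. GTAAACA, the core bound by FOXO and other forkhead factors, lay in 0 of the 10 windows and in 3.17% of all.

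Per transcript length, the binding proteins led. The mean over 12 libraries was 7.23 FPKM for Igfbp6, 4.42 for Igfbp4 and 3.96 for Igfbp2, followed by 2.23 for Insr, 1.07 for Igf1r, 0.888 for Irs2, 0.840 for Igfbp3, 0.591 for Igf1, 0.143 for Igfbp5 and 0.116 for Irs1. The ranges over the 12 libraries did not overlap between Igfbp6 and Igfbp4, between Igfbp2 and Insr, between Insr and Igf1r, or between Igf1 and Igfbp5. The ranges of the other neighbours in this order overlapped. Within libraries, Igfbp4 was above Igfbp2 in 9 of 12, Igf1r above Irs2 in 11 and Irs2 above Igfbp3 in 9. Igfbp3 was above Igf1 in 10 of 12 libraries and Igfbp5 above Irs1 in 7. The insulin receptor was read at a higher level per length than the IGF1 receptor in 12 of 12 libraries, and Irs2 was read above Irs1, with lowest values of 0.590 FPKM for Irs2 and highest values of 0.161 FPKM for Irs1.

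The question of the design was how levels moved with age. It was asked of all 12 libraries as a slope on age in months, and of pairs of ages. None of the 10 genes passed an adjusted p-value of 0.05 in the slope with edgeR's quasi-likelihood test, in which 0.414% of 18367 genes tested passed (58 lower and 18 higher). At the same threshold with no adjustment, 6 of 10 passed, beside 17.5% of all genes, and 5 of 10 passed with lower levels at older ages (Igf1r, Irs1, Igfbp2, Igfbp4 and Igfbp6), beside 9.60% of all genes. The sixth, Igfbp5, had higher levels at older ages. DESeq2 called 2 of 10, Irs1 (adjusted p = 0.0081) and Igf1r (adjusted p = 0.021), beside 3.14% of all genes. The slope was negative for 9 of 10 genes and for 51.3% of all genes. These 9 include Igf1, at -0.00054 per month, whose sign changed when single libraries were left out. Scaled to the 15 months from 3M to 18M, the median log2 change was -0.35 for the 10 genes and -0.01 for all genes.

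**Figure D1:**
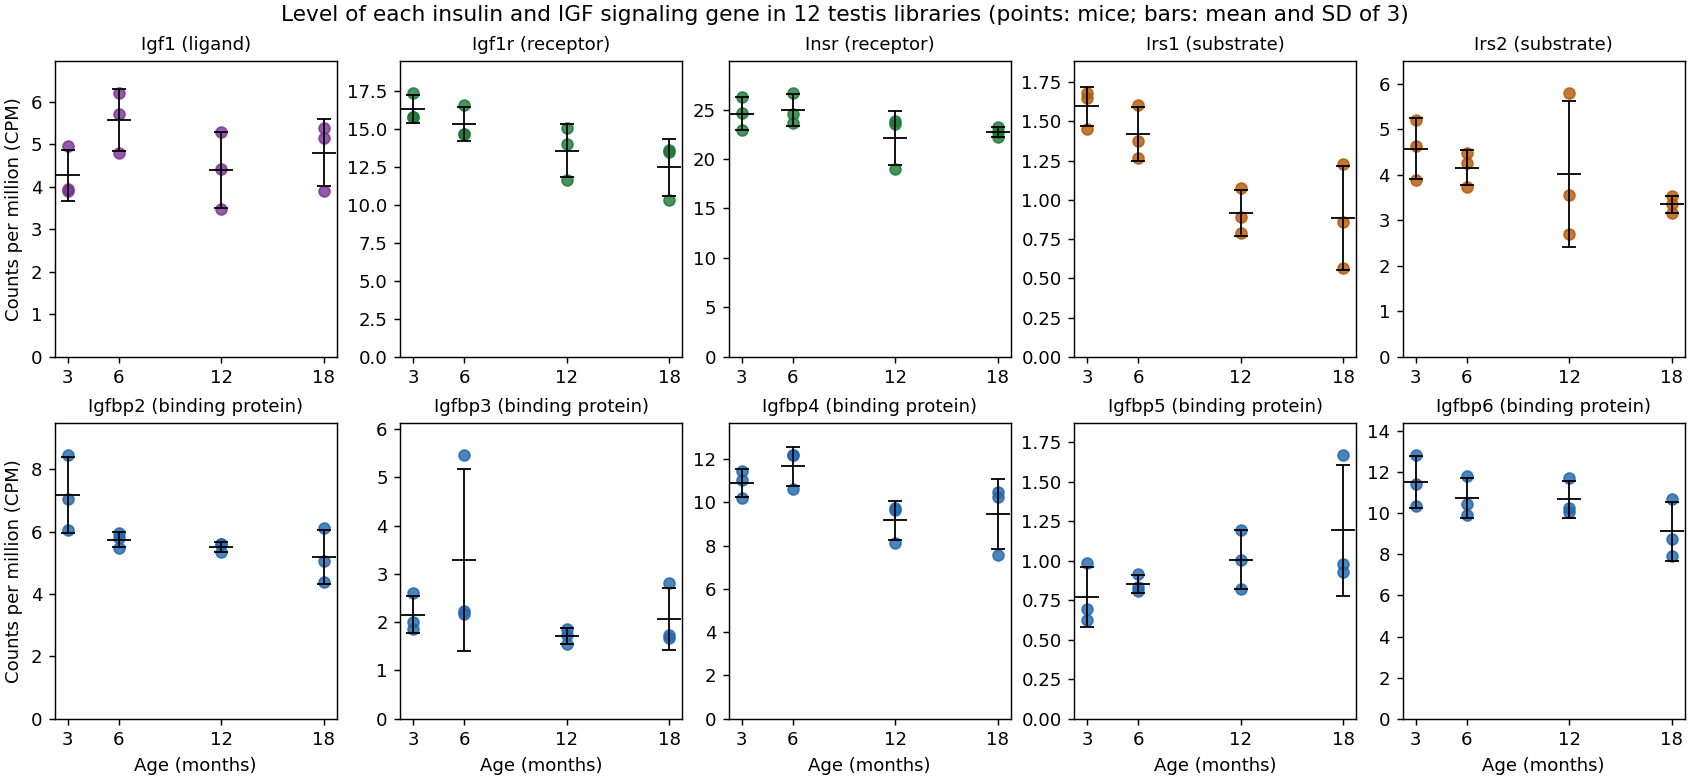
Each panel shows 1 gene, with age in months on the horizontal axis and CPM on the vertical axis from 0; points are mice, and black marks give the mean and SD of 3 mice at each age. Irs1 spans 1.45 to 1.68 CPM at 3M and 0.563 to 1.23 CPM at 18M, and Igfbp3 has 1 point at 5.47 CPM at 6M.

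Between 3M and 18M, 0 of 10 genes passed after adjustment with edgeR (0.0662% of 18130 genes passed), and 0 of 10 passed with DESeq2 (1.43%). At an unadjusted p-value of 0.05 or less, 5 of 10 passed, beside 13.5% of all genes. All 5 (Igf1r, Irs1, Irs2, Igfbp2 and Igfbp6) were lower at 18M, beside 7.25% of all genes. In 3 of 10 genes every 18M library lay below every 3M library (Igf1r, Irs1 and Irs2), beside 11.0% of all genes, and in 0 of 10 did every 18M library lie above, beside 9.47%. The mean of the 3 mice was lower at each step from 3M through 6M and 12M to 18M for 5 of 10 genes (Igf1r, Irs1, Irs2, Igfbp2 and Igfbp6), beside 7.83% of all genes, and higher at each step for 1 of 10 (Igfbp5), beside 6.34%. For Irs2, the step from 6M to 12M was 0.0017 on the log2 scale when transcripts of all classes were summed. For Igfbp6, that step was 0.00035 in the edgeR fit, while its mean read 10.73 CPM at 6M and 10.68 CPM at 12M. The median log2 difference between 3M and 18M was -0.27 for the 10 genes and -0.002 for all genes. These comparisons share the 3M and 18M libraries with the slope and are not separate evidence.

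The steps between neighbouring ages had no calls among the 10 genes after adjustment, with edgeR or with DESeq2. From 3M to 6M, edgeR called 0.0497% and DESeq2 0.364% of all genes, and 2 of 10 had an unadjusted p-value of 0.05 or less, beside 3.96%. These were Igf1, with a log2 change of 0.39 (SE 0.15), and Igfbp2, with -0.32 (SE 0.14), or -0.19 without 3M mouse 2. From 6M to 12M, the shares were 0.0606% with edgeR and 0.678% with DESeq2, and 3 of 10 had an unadjusted p-value of 0.05 or less, beside 8.72%. These were Irs1 (log2 change -0.62, SE 0.20), Igfbp3 (-0.94, SE 0.36) and Igfbp4 (-0.34, SE 0.11). From 12M to 18M, they were 0.0275% and 0.209%, and 0 of 10 had an unadjusted p-value of 0.05 or less, beside 3.52%.

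**Figure D2:**
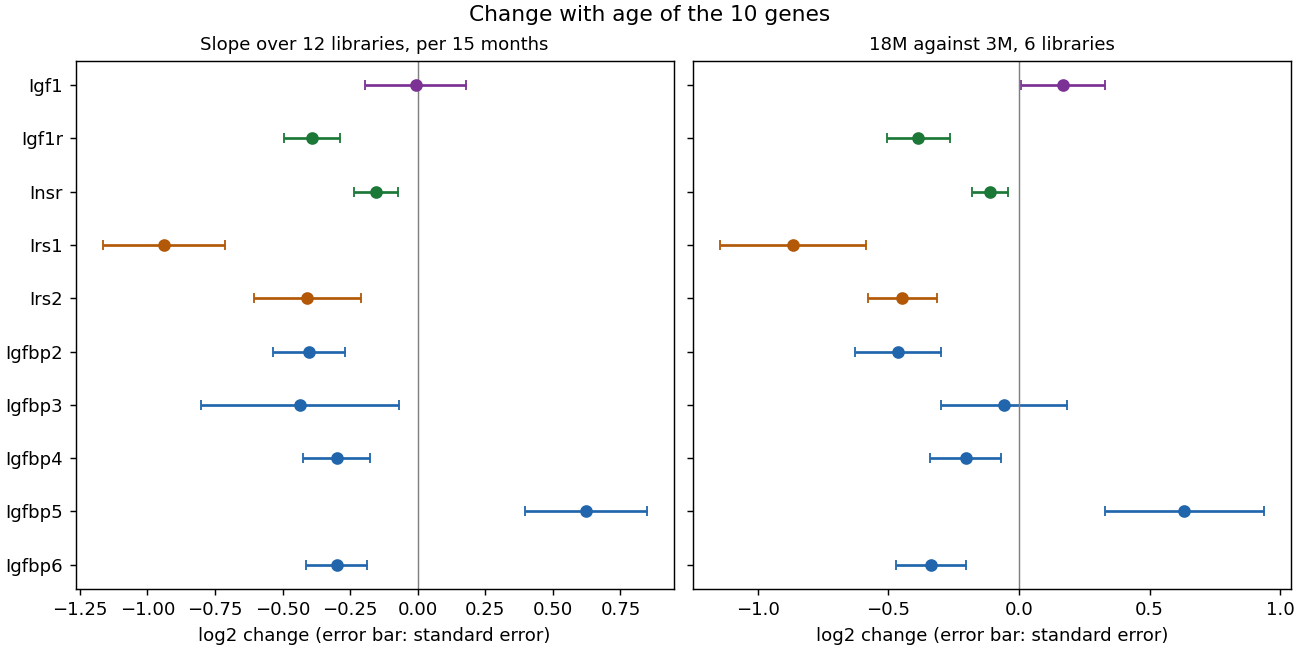
The log2 change of each of the 10 genes, with its standard error as a bar, from the slope on age scaled to 15 months (left) and from 18M against 3M (right); colours mark the ligand, receptors, substrates and binding proteins. Irs1 lies lowest, at -0.94 in the slope, and Igfbp5 highest, at 0.62.

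Igf1 encodes the ligand IGF1 and lies on chromosome 10 (chr10:87858265-87937047, plus strand). It read 4.97, 3.96 and 3.89 CPM in the 3M libraries, 4.78, 6.21 and 5.71 at 6M, then 3.47, 4.43 and 5.28 at 12M, and 5.14, 5.37 and 3.90 at 18M. The ages overlapped, and the mean was highest at 6M, at 5.57 ± 0.725 CPM (SD, n = 3) against 4.27 ± 0.602 at 3M. The slope over 15 months was -0.01 on the log2 scale (SE 0.19, adjusted p = 0.99, edgeR), and its sign changed when single libraries were left out. An antisense gene, Igf1os, overlaps Igf1, and since the libraries carry no strand, reads of such partners cannot be told apart.

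Igf1 has 5 deposited transcripts. The most abundant was NM_001111275, which starts at chr10:87859052 and skips the 52-base exon, at a mean of 0.345 FPKM. The next was NM_010512, with the same start and with the 52-base exon, at 0.0943 FPKM. NM_010512 received 56, 49 and 41 reads at 3M, 38, 57 and 64 at 6M, then 27, 28 and 41 at 12M, and 35, 28 and 23 at 18M. Its slope was -0.07 on the log2 scale per month (SE 0.02), which did not pass with edgeR (adjusted p = 0.53) and passed with DESeq2 (adjusted p = 0.024). Over single transcripts, edgeR called 0.00881% of 56784 transcripts in the slope and 0 of the 14 tested transcripts of the 10 genes. With no adjustment, 6 of the 14 passed, beside 6.99% of all transcripts. DESeq2 called 3 of the 14, beside 1.45% of all transcripts, which were NM_010512 and the single transcripts of Igf1r and Irs1.

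The split of Igf1 reads between its starts was uneven from library to library. NM_001314010, which starts at chr10:87858265, received 58 reads in 18M mouse 1 and at most 7 in any other library. NM_001111276, which starts at chr10:87861111, received 0 reads in 3M mouse 1, 3M mouse 2 and 6M mouse 1, and between 30 and 159 reads in the other 9 libraries. NM_001111274, which shares that start, received 2, 3 and 3 reads in those 3 libraries. The first exon of both transcripts was covered there at 0.464, 0.875 and 0.953 reads per base, inside the range of 0.376 to 2.32 over the other 9. The coverage of exons common to all 5 transcripts was therefore summed over the transcripts and scaled to 50000000 reads per library. The 182-base exon (chr10:87913619-87913800) had a coverage of 21.9, 13.6 and 15.7 at 3M and of 23.18, 24.999 and 23.06 at 18M, without overlap. The last exon (chr10:87930675-87937047) had 2.99, 2.40 and 2.07 at 3M and 2.73, 2.79 and 2.14 at 18M, with overlap. The third, of 157 bases (chr10:87864731-87864887), had 8.67, 7.29 and 10.1 at 3M and 14.7, 19.1 and 7.13 at 18M, also with overlap. The ages were thus apart in 1 of 3 common exons, and no test was made of single exons.

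Igf1r encodes the IGF1 receptor and lies on chromosome 7 (chr7:67952257-68233667, plus strand, 21 exons). It read 15.8, 17.4 and 15.8 CPM at 3M, 14.7, 14.7 and 16.6 at 6M, then 14.03, 15.04 and 11.6 at 12M, and 13.6, 13.5 and 10.3 at 18M. Every 18M library lay below every 3M library, and the lowest was 18M mouse 3. The mean was 16.3 ± 0.936 CPM (SD, n = 3) at 3M and 12.5 ± 1.87 at 18M. The slope over 15 months was -0.39 on the log2 scale (SE 0.10), a difference of -23.8%, with an adjusted p of 0.12 in edgeR and 0.021 in DESeq2. Leaving out 18M mouse 3 gave an edgeR adjusted p of 0.301. No annotated gene overlaps Igf1r.

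Insr encodes the insulin receptor and lies on chromosome 8 (chr8:3150922-3279617, minus strand). It read 23.0, 26.2 and 24.6 CPM at 3M, 23.6, 26.7 and 24.5 at 6M, then 23.9, 23.5 and 19.0 at 12M, and 23.3, 22.8 and 22.2 at 18M. The 18M libraries overlapped those of 3M and 12M and lay below those of 6M, and 12M mouse 3 was lowest. The slope over 15 months was -0.15 on the log2 scale (SE 0.08, edgeR adjusted p = 0.35). The genes Gm16180 and Vmn2r-ps88 overlap Insr on the other strand.

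The deposited table divides Insr into NM_010568, without exon 11 (mean 1.66 FPKM), and NM_001330056, with it (mean 0.575 FPKM). The share of Insr reads assigned to NM_001330056 was 0.613%, 38.7% and 38.6% in the 3M libraries, 0.264%, 7.73% and 100% at 6M, 22.9%, 0.0833% and 49.3% at 12M, and 27.5%, 12.3% and 9.09% at 18M. Mice of 1 age thus lay at both ends of the scale. The coverage of exon 11 in the assembled transcripts, as a percentage of the mean of its neighbour exons, was 0.170%, 5.17% and 11.3% at 3M, 0.0884%, 14.97% and 12.5% at 6M, 6.88%, 5.71% and 38.2% at 12M, and 12.1%, 5.19% and 5.09% at 18M. In 6M mouse 3 the table assigned 100% of the reads to the transcript with the exon, where the exon had 12.5% of the coverage of its neighbours. In 12M mouse 2 it assigned 0.0833%, where the exon had 5.71%. By coverage, the median over 12 libraries was 6.29%. The exon itself was covered at 0.014 to 4.5 reads per base, which limits any statement on its change with age, and whether the assembled coverage moves with the assignment of reads was not tested.

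**Figure D3:**
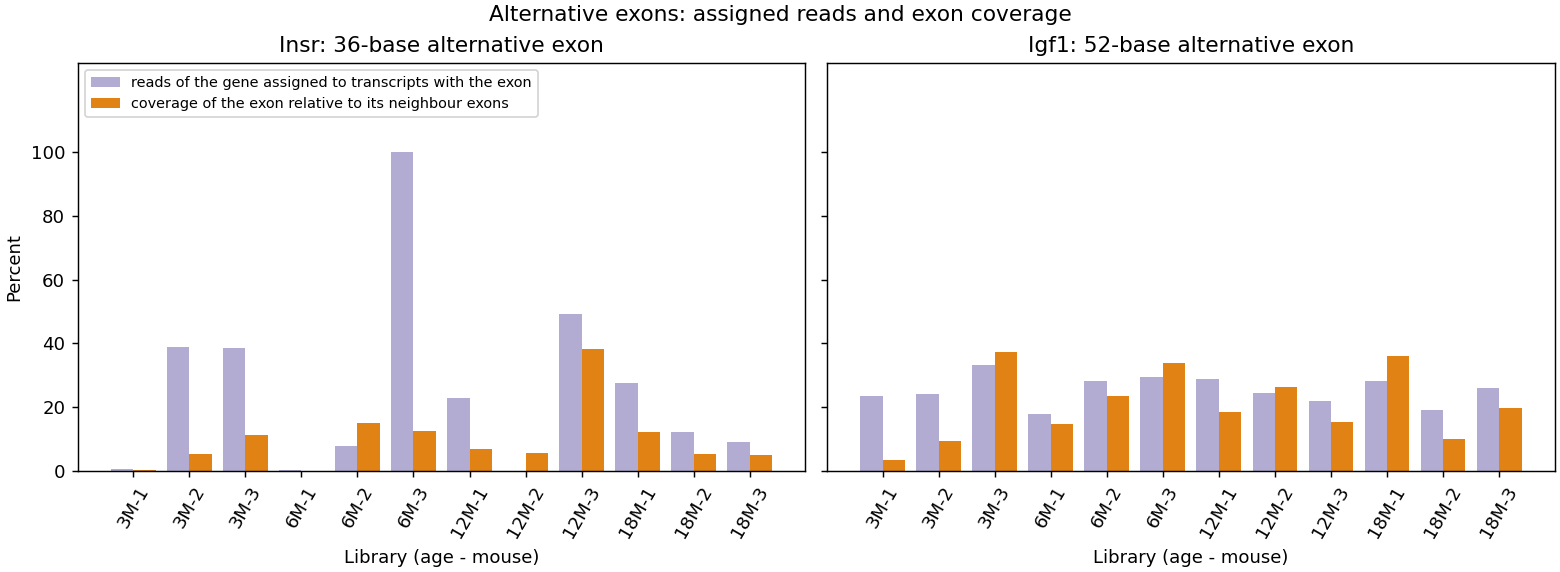
For each of 12 libraries (age and mouse number), bars from 0 give the percent of reads of Insr (left) or Igf1 (right) assigned to transcripts with the alternative exon, beside the coverage of that exon as a percent of its neighbours (Insr: mean of both sides; Igf1: the 182-base exon before it). The Insr bars reach 100% and 12.5% in 6M mouse 3, while the assigned share of Igf1 stays between 17.8% and 33.3%.

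For the 52-base exon of Igf1, the share of reads assigned to transcripts with it was steadier, from 17.8% to 33.3% with a median of 25.1%. Its coverage ranged from 3.36% (3M mouse 1) to 37.3% (3M mouse 3) of the 182-base exon before it. Both ends of that range were 3M mice, so the spread within 1 age was as wide as that over all ages.

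Irs1 and Irs2 encode the main substrates of the insulin and IGF1 receptors. Irs1 lies on chromosome 1 (chr1:82233105-82291439, minus strand, 2 exons). It read 1.65, 1.45 and 1.68 CPM at 3M, 1.27, 1.60 and 1.38 at 6M, then 0.787, 1.08 and 0.888 at 12M, and 0.856, 1.23 and 0.563 at 18M. Every library at 12M and 18M lay below every library at 3M and 6M. This split was read from the values, and its share over all genes was not taken. The mean was 1.59 ± 0.123 CPM (SD, n = 3) in 3M mice, 1.42 ± 0.172 in 6M mice, 0.918 ± 0.147 in 12M mice and 0.882 ± 0.333 in 18M mice. The slope over 15 months was -0.94 on the log2 scale (SE 0.23), a difference of -47.9%, with an adjusted p of 0.094 in edgeR and 0.0081 in DESeq2. Without 18M mouse 2, the highest of its age, edgeR gave an adjusted p of 0.034 and called Irs1, and without 18M mouse 3 the p was 0.272. Of the steps, that from 6M to 12M was the widest, at -0.62 (SE 0.20, adjusted p = 0.53). The gene rests on 38 to 92 reads per library, and Gm9747 overlaps it on the other strand.

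Irs2 lies on chromosome 8 (chr8:10986964-11008430, minus strand, 2 exons). It read 3.88, 5.21 and 4.62 CPM at 3M, 4.26, 4.48 and 3.72 at 6M, then 3.54, 5.80 and 2.70 at 12M, and 3.54, 3.16 and 3.35 at 18M. The 18M libraries lay below the 3M libraries, while the 12M libraries held both the highest and the lowest of all 12. The log2 difference from 3M to 18M was -0.45 (SE 0.13, edgeR adjusted p = 0.29), and the slope over 15 months was -0.41 (SE 0.20, adjusted p = 0.30). A transcript of class p that lies in an Irs2 exon was not summed here. With all classes summed, the log2 step from 6M to 12M was 0.0017 in place of -0.045. Over the other processing settings, the difference from 3M to 18M ran from -0.45 to -0.29. The gene 9530052E02Rik overlaps Irs2 on the other strand.

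The 5 binding proteins differed in how their levels ran. Igfbp2, which binds IGF1 and IGF2 and also integrins, read 7.04, 8.47 and 6.05 CPM at 3M, 5.80, 5.48 and 5.95 at 6M, then 5.33, 5.60 and 5.60 at 12M, and 5.06, 4.39 and 6.12 at 18M. The libraries of 3M mice 1 and 2 were highest, and 3M mouse 3 lay below 18M mouse 3. Its slope over 15 months was -0.40 on the log2 scale (SE 0.13, edgeR adjusted p = 0.17). Nearly all of its reads lay in NM_008342 (3.91 FPKM), beside 0.0482 FPKM for NM_001310659.

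Igfbp3, the main carrier of IGFs in blood, read 2.01, 2.60 and 1.86 CPM at 3M, 2.22, 2.17 and 5.47 at 6M, then 1.54, 1.86 and 1.72 at 12M, and 2.81, 1.67 and 1.73 at 18M. The library of 6M mouse 3 stood above the other 11, which lay between 1.54 and 2.81 CPM. That library also had the highest summed Leydig cell markers, at 1299 CPM against 555 to 1018 CPM in the others. Insl3 alone gave 977 CPM of that sum. Cyp17a1 (140 CPM), Hsd3b1 (53.5), Star (50.4), Hsd17b3 (18.4) and Lhcgr (3.76) were also highest of the 6M libraries there. Only Cyp11a1 was lower, at 54.8 CPM there, against 63.6 and 68.3 in the other 6M libraries. The summed Sertoli cell markers were highest there too, at 355 CPM against 277 to 314 CPM in the others. The part of either cell type in the value was not tested. Without 6M mouse 3, the log2 step from 6M to 12M was -0.36 in place of -0.94. The adjusted p of the slope was then 0.77 in place of 0.56 (edgeR).

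Igfbp4, a binding protein that holds IGFs from their receptors until the protease PAPPA cleaves it, read 11.5, 10.2 and 11.04 CPM at 3M, 10.6, 12.2 and 12.2 at 6M, then 8.12, 9.64 and 9.73 at 12M, and 10.5, 10.3 and 7.59 at 18M. The 12M libraries lay below all libraries of 3M and 6M, and those of 18M overlapped every other age except 6M. Its slope over 15 months was -0.30 on the log2 scale (SE 0.12, edgeR adjusted p = 0.24). Per month the slope was -0.020, and without 18M mouse 3, the lowest library, it was -0.013 (adjusted p = 0.55).

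Igfbp5, which binds IGFs in the extracellular matrix, read 0.985, 0.626 and 0.695 CPM at 3M, 0.832, 0.917 and 0.807 at 6M, then 1.002, 1.19 and 0.820 at 12M, and 0.931, 1.67 and 0.978 at 18M. The means in order of age were 0.769 ± 0.191, 0.852 ± 0.0576, 1.01 ± 0.188 and 1.19 ± 0.414 CPM (SD, n = 3), and 3M overlapped 18M. Its slope over 15 months was 0.62 on the log2 scale (SE 0.22, edgeR adjusted p = 0.20). Without 18M mouse 2, at 1.67 CPM, the log2 difference from 3M to 18M was 0.32 in place of 0.63. Igfbp5 and Igfbp2 are neighbours on chromosome 1, 5457 bases apart and on opposite strands (chr1:72858065-72874865 and chr1:72824480-72852471).

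Igfbp6, which prefers IGF2 over IGF1, was the most abundant of the 10 genes per length. It read 11.4, 12.8 and 10.3 CPM at 3M, 9.92, 10.5 and 11.8 at 6M, then 10.1, 11.7 and 10.3 at 12M, and 10.7, 7.91 and 8.76 at 18M. The 18M mice overlapped the 3M mice through 18M mouse 1. Its slope over 15 months was -0.30 on the log2 scale (SE 0.11, edgeR adjusted p = 0.21).

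Across the 12 libraries, the levels of the 10 genes (log2 CPM) gave 45 pairwise correlations, of which 33 were above 0, with a median Pearson r of 0.35. The points share their libraries, ages and scaling, so these are descriptions. Irs1 ran most nearly with Igfbp4 (r = 0.86) and Igf1r (r = 0.82), whereas Igfbp5 ran against Igfbp2 (r = -0.71). Among 11797 genes with a mean of 5 CPM or more, those most alike in pattern to Irs1 were Ephx1, which encodes microsomal epoxide hydrolase (r = 0.90), Zbtb40 (r = 0.88) and Tnpo2 (r = 0.87), each over 12 libraries. Ephx1 read 63.8 ± 2.92 CPM (SD, n = 3) at 3M and 29.9 ± 8.90 at 18M. The summed Leydig cell markers were also lowest in 18M mouse 3, the library lowest in Igf1r and Irs1. So were the summed spermatogonia markers, at 55.7 CPM there against 62.7 to 71.8 CPM in the others. In the Leydig list, Insl3, Cyp11a1, Hsd17b3 and Lhcgr were lowest in that library. Cyp17a1 and Star were lowest in 18M mouse 2, and Hsd3b1 in 12M mouse 1. The part of either cell type in the levels of the 10 genes was not tested.

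The other genes of the pathway were taken from a list of 56, of which 51 passed the filter on low counts. In the slope, 2 of 51 passed after adjustment with edgeR (Igf2 higher and Grb14 lower with age), beside 0.414% of all genes. DESeq2 called 4 of 51 (also Htra1 and Grb10), beside 3.14%. An unadjusted p-value of 0.05 or less was reached by 15 of 51, beside 17.5% of all genes, and by 12 of 51 with lower levels at older ages, beside 9.60%. The 3 higher ones were Igf2, Irs4 and Gsk3b, of which the latter pair is named after its values were seen. The slope was negative for 34 of 51, beside 51.3% of all genes, and the median over 15 months was -0.07 on the log2 scale, beside -0.01. By role, with the same 17.5% of all genes as background, the unadjusted threshold was reached by 3 of 6 proteases and inhibitors, 5 of 7 adaptors, 2 of 7 phosphatidylinositol kinases and phosphatases, 1 of 6 kinases, 2 of 8 genes of the TOR branch, 1 of 2 phosphatases and 1 of 1 ligand tested. It was reached by 0 of 4 FOXO factors, 0 of 5 genes of the MAP kinase branch, 0 of 2 receptors, 0 of 2 binding proteins or partners and 0 of 1 glucose transporter. These are counts of few genes each, and no role was tested as a group. Between 3M and 18M, 0 of 51 passed after adjustment with edgeR (0.0662% of all genes), 4 with DESeq2 (1.43%), and 8 had an unadjusted p-value of 0.05 or less (13.5%).

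**Figure D4:**
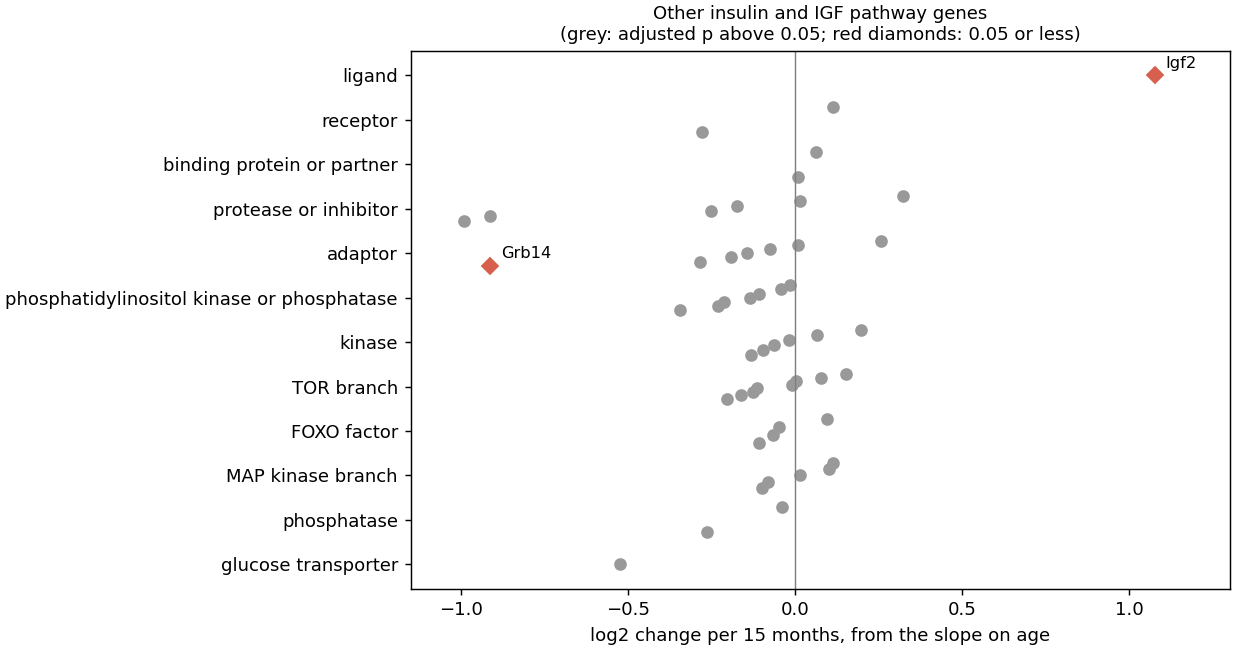
Each point is 1 of 51 other pathway genes, placed by its log2 change over 15 months from the slope on age and grouped by role; red diamonds passed an adjusted p of 0.05. Igf2 stands at 1.08 and Grb14 at -0.91.

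Igf2, the second IGF ligand and an imprinted gene read from the paternal copy, was the ligand that rose. It read 5.53, 5.85 and 5.56 CPM at 3M, 9.75, 8.44 and 11.8 at 6M, then 10.9, 12.6 and 9.34 at 12M, and 17.2, 13.8 and 11.2 at 18M. Every library after 3M lay above every 3M library. The slope over 15 months was 1.08 on the log2 scale (SE 0.21, adjusted p = 0.047, edgeR), and the difference from 3M to 18M was 1.32 (SE 0.16, adjusted p = 0.063). The step from 3M to 6M was 0.83 (SE 0.13, edgeR adjusted p = 0.30 and DESeq2 adjusted p = 4.2e-05). With DESeq2, the adjusted p from 3M to 18M was 1.8e-13. With edgeR, the call in the slope lay close to the threshold. Leaving out single libraries gave slopes of 0.064 to 0.082 per month with adjusted p-values of 0.018 to 0.14, and only without 6M mouse 3 did it stay at 0.05 or less. Insulin itself was at or near 0: Ins1 had 0 reads in all 12 libraries, and Ins2 read at most 0.181 CPM.

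Grb14, an adaptor that binds the insulin receptor and inhibits its kinase, read 3.44, 3.04 and 4.003 CPM at 3M, 2.81, 3.31 and 4.02 at 6M, then 2.67, 2.49 and 2.29 at 12M, and 2.16, 2.05 and 1.56 at 18M. Every library at 12M and 18M lay below every library at 3M and 6M, a split whose share over all genes was not taken. Grb14 fell by 0.91 on the log2 scale over 15 months (SE 0.15, adjusted p = 0.025, edgeR). The edgeR call was lost without 3M mouse 3 (adjusted p = 0.062), 6M mouse 2 (0.057), 18M mouse 2 (0.074) or 18M mouse 3 (0.11). From 3M to 18M, the adjusted p was 0.25 with edgeR and 0.0085 with DESeq2. The reads of Grb14 were divided between a RefSeq transcript and an assembled transcript that shares a junction with it, and with the RefSeq transcript alone the slope was 0.15 per month (adjusted p = 0.47), so the value rests on the sum of both.

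Of the other named genes, Htra1, a protease that cleaves IGFBPs, had a log2 change over 15 months of -0.91 (SE 0.19, edgeR adjusted p = 0.067), with 7.08, 7.14 and 5.85 CPM at 3M and 5.42, 3.12 and 3.07 at 18M. The 18M libraries lay below those of 3M. Grb10, an adaptor related to Grb14, had -0.28 (SE 0.07, adjusted p = 0.096), and Stc2, which inhibits PAPPA, had -0.99 at a level of 0.241 to 0.915 CPM (adjusted p = 0.15). Inppl1, a lipid phosphatase that acts against PI3K, had -0.21, and Ide, the insulin-degrading enzyme, had -0.17 (adjusted p = 0.17 for both). Igf2r, which clears IGF2, had -0.28 (SE 0.13, adjusted p = 0.30), and Igfbp7, a binding protein of low affinity for IGFs, read 29.7 to 44.3 CPM with a change of 0.01 (SE 0.12). Igfbp1, which lies 3539 bases from Igfbp3 on chromosome 11, read at most 0.121 CPM and was not tested.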

How the data were processed

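Testes of 12 C57BL/6 mice, 3 per age, were grouped by the ages in their labels. Unstranded libraries (TruSeq v2) of rRNA-depleted total RNA were read paired-end. The authors aligned reads with HISAT2 to mm10 and assembled transcripts with StringTie 1.3.3b. They deposited estimated counts and FPKM per transcript and library, with no normalization between libraries, and the assembly of each library. The counts derive from coverage and length, were deposited as whole numbers and were used as they stand. An uneven split between transcripts of 1 gene does not enter gene sums of counts, but limits transcript values. It can enter FPKM summed per gene where the transcripts differ in length.

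Counts were summed per gene over classes =, c, j and o and tested with edgeR 4.0.16 in R 4.3.3 (TMM, filterByExpr, quasi-likelihood F-test, Benjamini-Hochberg adjustment over all genes), with age in months over 12 libraries, or with only the libraries of both ages. SEs come from the same fits. DESeq2 1.42.0 was an alternative, beside other scalings, filters, transcript classes, log2 of age, a mouse-number block and leaving out each library. The scripts were checked on simulated counts. CPM used TMM-scaled library sizes. FPKM was summed per gene, with a pseudocount of 0.001 in log2 ratios. Correlations used log2(CPM + 0.1). Exon coverage and coordinates came from the assemblies (1-based). Annotation was GENCODE vM21, and upstream windows were from RefSeq (GRCm38.p6). Python 3.11.15 with pandas 2.3.3, numpy 2.4.6 and matplotlib 3.10.9 served for the rest.

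The 10 genes and all lists were chosen with earlier results of these data known. Named were the 10 genes, pathway genes with an adjusted p of 0.05 or less, the next 5 by p, Ins1, Ins2, Igf2r, Igfbp1 and Igfbp7, up to 2 transcripts per gene by FPKM, and 3 genes most alike to whichever of the 10 had the smallest p. No batch is given in the labels. Genes with few reads carry more counting error.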

Additional observations from a re-analysis of the deposited data

Results flagged for a closer look

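Reads assigned to the symbols Igfbp4 and Irs2 outside the transcripts summed above are given here because they lie in data that the comparisons did not use. A single-exon transcript inside Igfbp4 (class i, chr11:99042052-99043399) received 45 to 152 reads per library, with a median of 65, and 317 of its 1348 bases lie in GENCODE exons. A single-exon transcript next to the deposited end of Irs2 (class p, chr8:10984681-10985606) received 59 to 148 reads, with a median of 103.5, and all 926 of its bases lie in a GENCODE exon of Irs2. Its mean was 1.81 FPKM, beside 0.888 FPKM for the Irs2 transcript summed above.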

How the results depend on the processing

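The direction of each of the 10 genes in the slope held under the other scalings, filters and tests, except for Igf1, whose slope of -0.00054 on the log2 scale per month became 0.00031 with exact matches only and 0.015 per doubling of age. The count of the 10 genes called in the slope (0) became 2 with DESeq2 and 6 without adjustment, and 0 to 1 when single libraries were left out (1 without 18M mouse 2, Irs1). Without adjustment it became 5 from 3M to 18M, 2 from 3M to 6M and 3 from 6M to 12M. For transcripts of the 10 genes, 0 became 3 with DESeq2.

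The count of 2 other pathway genes in the slope became 1 with library size only, no filter, all classes or log2 of age, 0 with exact matches only, 4 with DESeq2, 15 without adjustment, and 0 to 2 without single libraries. From 3M to 18M, 0 became 4 with DESeq2, 1 with all 12 libraries, 8 without adjustment and 0 to 1 without single libraries. With exact matches only, the slopes of Grb14 (0.15), Inppl1 (0.00036) and Ide (0.0015) and the 3M to 18M changes of Grb14 (1.92), Grb10 (0.034), Inppl1 (0.35) and Ide (0.095) reversed, which drops the assembled transcripts of these genes. The slope of Igfbp7 was -0.00026 with library size only. The log2 ratio of mean FPKM at 18M to that at 3M for Igf1, 0.16, became -0.64 with only the transcripts of a mean FPKM of 0.1 or more.

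From 6M to 12M, Igfbp6 (0.00035) became -0.0052 with DESeq2 size factors, -0.028 with library size only, -0.0051 with no filter, -0.0078 at 1 CPM, -0.0063 with DESeq2, -0.020 with all classes and -0.0055 with all 12 libraries; Irs2 became 0.0017 with all classes. Without single libraries, log2 changes ran from -0.0061 to 0.0070 (Igf1) and -0.0030 to 0.0055 (Igfbp7) in the slope, from -0.33 to 0.099 (Igfbp3) and -0.031 to 0.15 (Igfbp7) from 3M to 18M, from -0.032 to 0.069 (Insr) from 3M to 6M, and from -0.082 to 0.068 (Igfbp6) and -0.42 to 0.17 (Irs2) from 6M to 12M. From 12M to 18M they ran from -0.018 to 0.28 (Igf1), -0.22 to 0.00091 (Igf1r), -0.056 to 0.096 (Insr), -0.38 to 0.19 (Irs1), -0.47 to 0.11 (Irs2), -0.22 to 0.022 (Igfbp2), -0.038 to 0.18 (Igfbp4) and -0.072 to 0.39 (Igfbp5). Except where the construction shows it, the cause was not tested.

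With mouse number as a replicate block, the count of other pathway genes in the slope was 0 in place of 2, the adjusted p of Grb14 was 0.057 and of Igf2 0.082, Igfbp6 was -0.0088 from 6M to 12M, and no call among the 10 genes changed. The numbers do not pair the mice: the correlation of same-numbered mice ran from -0.055 to 0.15 over 18 pairs, and 5 of 12 libraries correlated best with their own number. Irs1, Igfbp5 and single transcripts of Igf1 rest on few reads, which limits their precision.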
